A study of Mus musculus with 3 samples.

Results

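Interferon-marked C1q macrophages were a gated class of immune cells in mouse melanoma grafts: cells with abundant complement C1q transcripts that also carried transcripts of Cxcl11, Ifit1bl1 and Iigp1. Members were chosen by measured values, the raw counts per cell. A member had at least 10 counts of C1qa, C1qb and C1qc together and at least 4 of Cxcl11, Ifit1bl1 and Iigp1 together. It had at most 2 counts of Pf4, Vcam1 and Ccl8 together, which kept out another kind of C1q macrophage. It also had at most 1 count of Cd3d, Cd3e and Cd3g (T cells), at most 1 of Ncr1 and Klrb1c (NK cells) and at most 1 of Mki67, Top2a, Birc5 and Ube2c (dividing cells). This gate held 529 of the 43730 deposited cells.

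The study sorted live CD45+ cells, that is leukocytes, from tumours grown under the skin of mice injected 18 days earlier with 500000 YUMM1.7 cells, a mouse melanoma line. The 3 groups differed in the age of the mice, 4, 12 or 20 months (4M, 12M and 20M), with 7 mice of each age, and no other treatment is labelled. Each age has 1 PIP-seq library, and pooling of mice, strain and sex are not given in the labels. PIP-seq is a 3′ single-cell RNA method in which cells and barcoded beads are captured in droplets without a microfluidic chip. The series title asks how age changes macrophages that express the receptors TREM1 and TREM2.

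C1q is the recognition subunit of the classical complement pathway, and in tumours its transcripts mark macrophages, which take up dying cells and debris and can present antigen. Type I interferons act through the receptor IFNAR and on interferon-stimulated response elements, and so raise antiviral genes such as the Ifit, Oas and Mx families. Interferon gamma, made mainly by T and NK cells, acts through its own receptor, and raises guanylate-binding proteins, immunity-related GTPases, antigen presentation genes and the chemokines Cxcl9, Cxcl10 and Cxcl11, which draw T cells that carry CXCR3. Many genes answer to both kinds of interferon.

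The 4-, 12- and 20-month libraries held 264, 65 and 200 members, with medians of 7593, 7314 and 7132 counts per cell. Other gated classes of the same libraries served for comparison, and the word count here means 1 unit of the deposited matrices. C1q cells low in both sums passed the same C1q, T, NK and dividing gates but had at most 3 counts of Cxcl11, Ifit1bl1 and Iigp1 and at most 2 of Pf4, Vcam1 and Ccl8 (341, 118 and 289 cells). The Pf4/Vcam1/Ccl8 C1q cells had at least 3 counts of that sum and at most 3 of the interferon sum (30, 16 and 52 cells). Interferon-marked C1q-low cells had the same interferon, Pf4/Vcam1/Ccl8, T, NK and dividing gates as the members. They had at most 1 count of the dendritic cell genes gated on, at most 2 counts of C1q and at least 5 of the monocyte and macrophage lysozyme gene Lyz2 (303, 36 and 39 cells). T cells with at least 3 Cd3 counts, the same NK gate and at most 1 count each of C1q and Lyz2 (349, 272 and 198 cells) served as a guide to free RNA. Their level shows roughly what RNA free in the droplets can leave in a cell, and is quoted beside results that such RNA can touch. The T cells make some of these transcripts themselves, so for those their level can lie above that of free RNA. T cells with more C1q or Lyz2 counts were left out, so for macrophage transcripts the level can lie below it. It is not a measure of free RNA.

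The members carried macrophage transcripts. All 11 listed macrophage markers were detected in each library. Their summed level was 12864 to 14766 CPM (counts of a gene per 1000000 counts of the summed cells). In the T cells it was 434 to 531 CPM. The markers include C1qa, C1qb, C1qc and Lyz2, on which classes were gated, so differences in the sum are partly set by the gates. The receptor gene Csf1r stood at 253, 316 and 349 CPM at 4, 12 and 20 months, and the Fc receptor gene Fcgr1 at 1084, 963 and 1163 CPM, against 30.4, 28.6 and 30.4 CPM and 86.6, 55.2 and 93.2 CPM in the T cells. Of the monocyte genes, Plac8 stood at 4559, 3582 and 4411 CPM, against 1813, 1743 and 1686 CPM in the T cells. The level of Ly6c2, 5782, 5279 and 4689 CPM, overlapped that in the T cells, 5644, 6090 and 5162 CPM. The summed T cell markers reached 399 to 586 CPM in the members and 434 to 568 CPM in the C1q cells low in both sums. Melanoma markers summed to 3.3 to 10.2 CPM, with 3 or 4 of the 6 at 0 in each library, B cell markers to 14.3 to 19.5 CPM and neutrophil markers to 63.9 to 100 CPM. NK cell markers summed to 116 to 296 CPM and dendritic cell markers to 38.8 to 63.3 CPM. The T and NK cell sums hold genes that the gates kept low. The macrophage sum, with its gate genes, did not separate the members from the interferon-marked C1q-low cells (12515 to 15133 CPM). It was highest in the Pf4/Vcam1/Ccl8 C1q cells (19322 to 22084 CPM). Monocyte markers summed to 9749 to 11341 CPM in the members, 14986 to 16548 CPM in the C1q-low cells and 1854 to 2309 CPM in the Pf4/Vcam1/Ccl8 C1q cells. In the T cells this sum was 7372 to 8399 CPM, and in the members most of it was Ly6c2 and Plac8. The name macrophage thus rests on C1q, which the rule used. Beside macrophage genes the members held the monocyte gene Plac8 above the T cell level, but little Hp, F13a1 and Vcan. These stood at 23.8 to 49.9, 9.1 to 16.3 and 14.3 to 27.0 CPM.

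Members made up 40.7% of the C1q cells that passed the shared gates at 4 months (95% exact binomial interval 36.9% to 44.6%, 264 of 648 cells). The share was 32.2% at 12 months (25.8% to 39.1%, 65 of 202) and 35.8% at 20 months (31.8% to 39.9%, 200 of 559). Intervals here and below cover counting error only, and with 1 library for each age no test between ages was possible. The T cell gate removed most C1q cells, and removed more of them in the older libraries. Of all cells with at least 10 C1q counts, 34.2% passed it at 4 months, 8.93% at 12 months and 16.5% at 20 months, where the median Cd3 sum of such cells was 2, 5 and 4. With up to 5 Cd3 counts allowed, a setting chosen after seeing the data, the members numbered 760, 443 and 820. The number of members by age therefore moved with the Cd3 counts in macrophages, and no direction with age can be read from it. Of barcodes, 2 to 4 were shared between any pair of libraries, and none of these was a member in either. Among the members, 8, 0 and 2 cells had a doublet score among the highest 6% of their library.

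**Figure D1:**
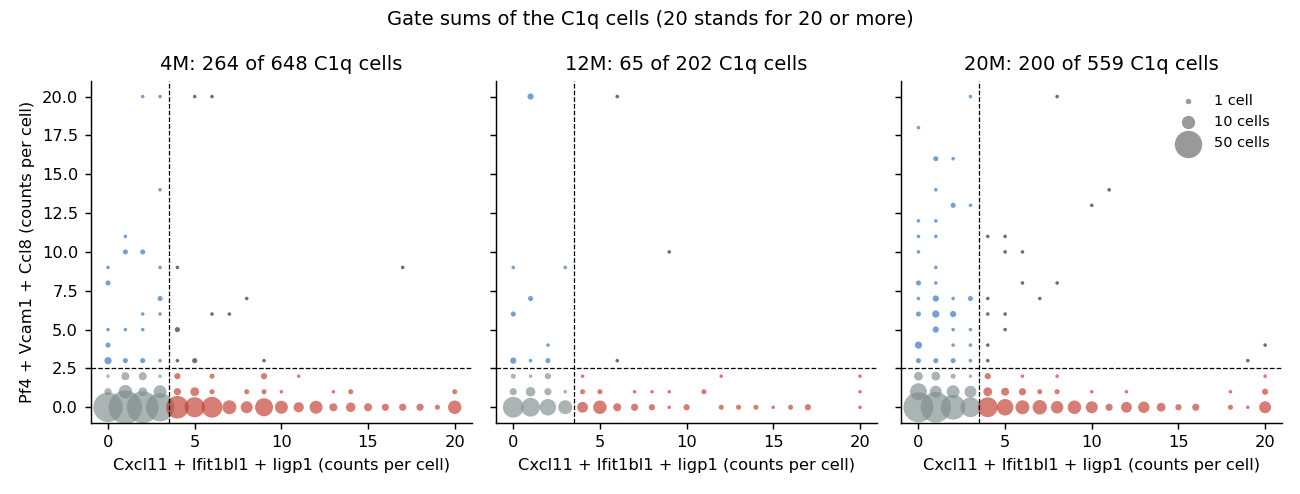
Sum of Pf4, Vcam1 and Ccl8 counts against the sum of Cxcl11, Ifit1bl1 and Iigp1 counts in each C1q cell that passed the shared gates, 1 panel per age, with circle area for the number of cells and dashed lines for the gates. The members (red, 264, 65 and 200 cells) form a tail that continues from the low cells (grey) with no gap at the gate; Pf4/Vcam1/Ccl8 cells are blue and cells high in both sums black.

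The gate cut a continuous range. The interferon sum had a median of 7, 6 and 7 counts among members, with a maximum of 35, 30 and 37. In 31.4%, 43.1% and 32.5% of members the sum was 4 or 5, close to the threshold, and in 32.6%, 32.3% and 34.0% it was 10 or more. Ifit1bl1, a gene of the Ifit family of RNA-binding antiviral proteins, had a count in 89.8%, 84.6% and 93% of members. Iigp1, an immunity-related GTPase, had a count in 76.5%, 81.5% and 77.5%, and Cxcl11 in 56.8%, 55.4% and 50%. All 3 genes were seen together in 38.3%, 35.4% and 33.0% of members. These 3 genes are not confined to C1q cells: in the T cells Ifit1bl1 stood at 318, 266 and 269 CPM and Iigp1 at 229, 212 and 172 CPM, whereas Cxcl11 stood at 14.9, 5.5 and 5.9 CPM.

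Just outside and just inside the gate the levels of Isg15 overlapped. Cells with a sum of 3 had 1652, 1485 and 1358 CPM of Isg15, a ubiquitin-like antiviral modifier, and cells with a sum of 4 had 1885, 1314 and 942 CPM. Where the sum was 10 or more the level was 3094, 2522 and 3076 CPM, and where it was 0 it was 961, 847 and 780 CPM. Cxcl10 went from 412, 222 and 457 CPM at a sum of 0 to 2171, 2689 and 3321 CPM at 10 or more, and Rsad2, an antiviral enzyme also called viperin, from 143, 113 and 135 to 852, 700 and 1260 CPM. Next to the gate Cxcl10 stood at 632, 342 and 504 CPM at a sum of 3, below the 883, 830 and 682 CPM at a sum of 4. The class II gene H2-Aa did not follow the sum, with 7444, 8113 and 6271 CPM at 0 and 7239, 9152 and 5803 CPM at 10 or more. Cells of higher sum were also deeper, with medians of 8064.5, 7556 and 7624 counts at 10 or more against 6357, 6194 and 5824 at 0, and its part in the grading was not tested.

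**Figure D2:**
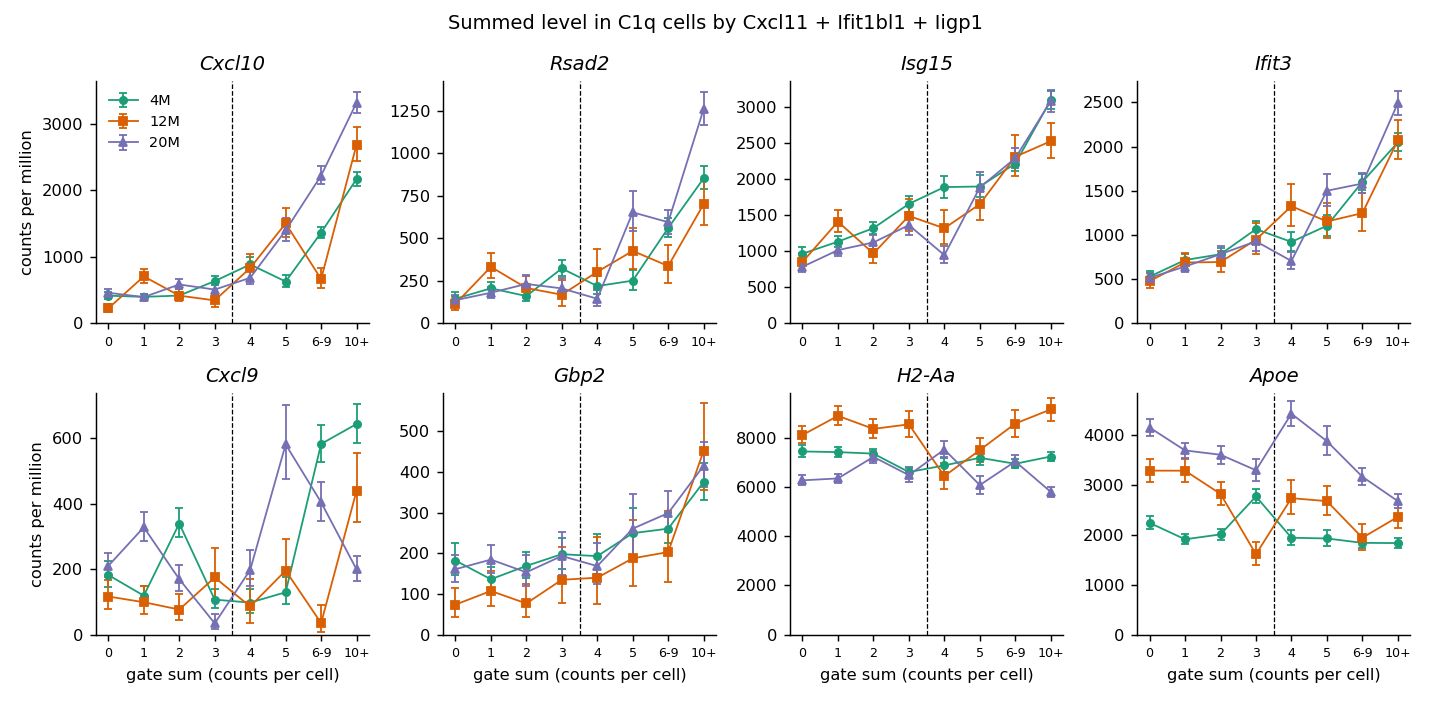
Summed level in CPM of 8 genes outside the gate in C1q cells grouped by their sum of Cxcl11, Ifit1bl1 and Iigp1 counts, 1 line per age, with 95% exact Poisson intervals and a dashed line at the gate. Cxcl10, Rsad2, Isg15 and Ifit3 are higher at a sum of 10 or more than at any sum under the gate in every library, H2-Aa stays between 5803 and 9152 CPM, and Cxcl9 is uneven.

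The genes Sectm1a and Aplnr were named as markers of these cells from the same data and are given as description only. Sectm1a, a secreted and transmembrane protein gene of the immune system, stood at 48.1, 59.2 and 53.3 CPM in the members, 21.5, 14.4 and 14.8 CPM in the C1q cells low in both sums and 38.0, 67.4 and 24.5 CPM in the Pf4/Vcam1/Ccl8 C1q cells. Aplnr, the apelin receptor gene, stood at 29.1, 38.8 and 35.3 CPM in the members and 10.3, 7.2 and 6.1 CPM in the C1q cells low in both sums, and had no count in the Pf4/Vcam1/Ccl8 C1q cells. It was as high in the interferon-marked C1q-low cells, at 40.8, 20.8 and 34.0 CPM. With each cell thinned to 3500 counts, Sectm1a was seen in 14.4%, 18.5% and 12.5% of members (28.4%, 32.3% and 26.5% before thinning) and Aplnr in 8.33%, 12.3% and 12.0% (16.3%, 18.5% and 20.5%). Most members thus had no count of either.

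Next, the members were compared with the C1q cells low in both sums over all genes outside the gates. Counts were summed over the cells of a class in each library and tested with edgeR's quasi-likelihood test, with the library as a block, so each of the 3 libraries gave 1 difference between classes. The gate genes were chosen from these same cells, so the test says how regularly a difference recurred over the 3 libraries and gives no independent evidence that the class exists. The 3 libraries differ in age, and nothing in the labels gives replicates within an age. Of 8122 genes tested, 364 were higher (4.48%) and 44 lower (0.542%) in the members at an adjusted p under 0.05. Without the 20-month library 184 were higher and 14 lower, and without the 4-month library 244 and 20.

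The type I interferon genes were higher in the members almost as a whole. Of the 40 listed genes, all of which were tested, 37 were higher and none lower, with a median log2 fold change of 0.78, against -0.02 over all genes tested. In 36 of the 40 the libraries of the members did not overlap those of the C1q cells low in both sums, which held for 17.6% of all genes tested. Under every alternative tried, 31 to 39 of the 40 were called higher. The genes that did not pass were Siglec1 (log2 fold change 0.66), Ifi27l2a (0.19) and Ly6e (0.11).

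Cmpk2, a mitochondrial nucleotide kinase induced by interferon, had the largest change of this list. It stood at 131, 118 and 204 CPM in the members at 4, 12 and 20 months and 45.0, 44.4 and 40.8 CPM in the C1q cells low in both sums, a log2 fold change of 1.89 ± 0.18 (SE; edgeR adjusted p = 2.0e-08). Rsad2 stood at 563, 472 and 757 CPM against 206, 208 and 180 CPM, a log2 fold change of 1.68 ± 0.15 (edgeR adjusted p = 4.8e-09). Its level in the T cells, 191, 168 and 141 CPM, lay near that in the C1q cells low in both sums. Ifit1, which binds foreign RNA ends, stood at 328, 378 and 422 CPM against 133, 116 and 142 CPM, but at 323, 279 and 212 CPM in the T cells.

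Other antiviral genes changed less. Isg15 stood at 2421, 2025 and 2266 CPM against 1267, 1135 and 1014 CPM (log2 fold change 1.03 ± 0.10; edgeR adjusted p = 1.3e-08). Usp18, the protease that removes ISG15 and dampens the type I receptor, stood at 611, 696 and 612 CPM against 326, 281 and 264 CPM (1.17 ± 0.10). Slfn4, a Schlafen gene of myeloid cells, stood at 572, 463 and 498 CPM against 320, 216 and 245 CPM, and at 62.7, 47.0 and 36.3 CPM in the T cells. The members and the low C1q cells did not overlap in any of these 3 genes, as held for 17.6% of all genes tested. The RNA sensor genes Ifih1 and Ddx58 were higher by 0.94 ± 0.12 and 0.79 ± 0.12, and the factor Irf7 by 0.56 ± 0.08. Near-identical copies such as Ifit3 and Ifit3b, Oas1a and Oas1g or Tgtp1 and Tgtp2 could share reads, and the counting rule is not given in the sources used here, so their values are less certain.

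Genes induced by interferon gamma were higher as well. Of 32 listed genes 29 were tested, of which 24 were higher and none lower, with a median of 0.90, and 20 to 28 were called higher under the alternatives. Socs1, the suppressor of cytokine signalling that inhibits JAK kinases, stood at 76.3, 118 and 77.6 CPM against 27.6, 25.2 and 31.6 CPM, a log2 fold change of 1.6 ± 0.20 (edgeR adjusted p = 2.1e-06). T cells held as much Socs1, 93.7, 83.1 and 65.7 CPM. Gbp2, a guanylate-binding protein, stood at 288, 269 and 312 CPM against 169, 93.6 and 172 CPM (1.00 ± 0.12; edgeR adjusted p = 1.1e-06). The GTPase genes Irgm1, Irgm2 and Igtp were higher by 0.85, 0.89 and 0.91, and the factor Irf1 by 0.76 ± 0.10. Il18bp, which neutralises interleukin 18, stood at 165, 129 and 146 CPM against 105, 87.6 and 96.8 CPM, with 18.7, 33.4 and 28.4 CPM in the T cells. Of this list Ciita, the master regulator of class II genes, had a log2 fold change of -0.29 ± 0.15 and did not pass.

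The chemokine Cxcl10 had the largest change of the genes named. It stood at 1461, 1572 and 2223 CPM in the members and 458, 427 and 470 CPM in the C1q cells low in both sums, a log2 fold change of 2.0 ± 0.14 (edgeR adjusted p = 5.2e-11). The level of the low C1q cells was close to the 492, 499 and 318 CPM of the T cells. Cxcl9 stood at 462, 218 and 314 CPM against 191, 110 and 214 CPM (1.00 ± 0.16), with 25.9, 40.9 and 16.7 CPM in the T cells. With each cell thinned to 3500 counts, Cxcl10 was seen in 81.1%, 80.0% and 79.5% of members and 60.7%, 52.5% and 51.9% of the low C1q cells, against 56.4%, 48.2% and 38.9% of the T cells (93.2%, 95.4% and 88.5% of members before thinning). Of the 12 chemokine genes tested 3 were higher, the third being Ccl12 (0.70 ± 0.17), whose libraries overlapped and which did not pass without the 4-month library (0.65) or without the 20-month library (0.41). The monocyte-attracting Ccl2 and Ccl7 had log2 fold changes of 0.24 and -0.06 and did not pass.

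Of the genes listed as interferons and inducers, some were higher in the members and none lower. Il15, a cytokine that sustains NK and memory T cells, stood at 74.4, 81.6 and 81.0 CPM in the members and 30.9, 26.4 and 36.2 CPM in the C1q cells low in both sums (1.33 ± 0.18; edgeR adjusted p = 8.4e-06), with 14.2, 12.9 and 12.7 CPM in the T cells. Tlr3, the endosomal receptor for double-stranded RNA, stood at 35.8, 36.7 and 42.9 CPM against 15.3, 15.6 and 15.8 CPM (1.35 ± 0.21; edgeR adjusted p = 4.5e-05). Of the 9 genes tested from the list of interferons and inducers, 5 were higher, but without the 20-month library 2 were, and Il27 (1.05 then), Cgas (0.74) and Il12b (1.05) did not pass. Ifng itself did not pass (0.06 ± 0.21), and its level in the members, 32.4, 26.5 and 26.3 CPM, was far below the 271, 327 and 138 CPM of the T cells.

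Among the signalling genes, Jak2 (0.77 ± 0.15) and Stat2 (0.63 ± 0.11) were higher. Ifngr1, the ligand-binding chain of the interferon gamma receptor, was lower, at 254, 294 and 259 CPM against 344, 318 and 397 CPM (-0.38 ± 0.09; edgeR adjusted p = 0.011), but did not pass without the 4-month (-0.38) or the 20-month library (-0.25). Jak2 did not pass without the 20-month library (0.63). The type I receptor genes Ifnar1 and Ifnar2 had log2 fold changes of -0.11 ± 0.15 and 0.01 ± 0.11.

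Genes through which macrophages address T cells were higher in part. Of 12 tested ligands 4 were higher. Cd274, which encodes PD-L1, stood at 105, 137 and 143 CPM against 66.8, 61.2 and 75.4 CPM (0.90 ± 0.15; edgeR adjusted p = 9.6e-05), near the 80.2, 70.9 and 72.6 CPM of the T cells. Cd40, the costimulatory receptor engaged by CD40 ligand, stood at 186, 174 and 180 CPM against 91.2, 103 and 77.5 CPM (1.08 ± 0.12; edgeR adjusted p = 3.9e-07), with 21.3, 17.7 and 11.8 CPM in the T cells. The death ligand Tnfsf10 was higher by 1.38 ± 0.20 and Lgals9 by 0.37 ± 0.09, Lgals9 not without the 20-month library (0.32). Cd80 and Cd86 did not pass (-0.09 and 0.11).

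Antigen presentation genes split by class. Of 19 class I pathway genes 6 were higher, H2-T22 (0.61 ± 0.08), Nlrc5 (0.58), Tap1 (0.41), Tapbp (0.34), Psmb9 (0.31) and Psmb10 (0.31), and the list median was 0.18. Without the 4-month library, and also without the 20-month library, 2 of the 19 were called. The classical chains H2-K1 and H2-D1 had changes of 0.13 and 0.15 and did not pass. Of 8 class II genes tested none passed, with a range from -0.29 to 0.06. H2-Ab1 stood at 7388, 8324 and 7366 CPM in the members and 7289, 8314 and 7189 CPM in the C1q cells low in both sums, a log2 fold change of 0.06 ± 0.08.

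Outside the interferon lists, Rilpl1, a Rab effector gene, stood at 60.1, 75.5 and 58.2 CPM against 20.2, 18.0 and 25 CPM (1.56 ± 0.21; edgeR adjusted p = 5.3e-06), with 5.2 to 8.8 CPM in the T cells. Acod1, which makes itaconate, stood at 78.7, 32.7 and 107 CPM against 24.8, 31.2 and 29.6 CPM (1.57 ± 0.23; edgeR adjusted p = 1.6e-05), with the 12-month library hardly above the low C1q cells. The members and the low C1q cells thus stood apart in Acod1 at 4 and 20 months. Slfn9 (1.32), Ifi205 (1.31) and the pseudogene-named Ifi203-ps (1.30) were also among the 10 largest rises by the naming rule. Of the 14 monocyte genes tested 6 were higher, by 0.28 to 0.64, and 2 without the 20-month library.

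Fewer genes were lower in the members, and by less. The 10 largest falls by the naming rule ran from -0.59 to -0.91. Gnl3, a nucleolar protein of ribosome production, stood at 45.3, 24.5 and 28.4 CPM against 89.1, 62.4 and 50.4 CPM (-0.91 ± 0.18; edgeR adjusted p = 0.00097), a level also seen in T cells (49.8, 64.1 and 51.0 CPM). Cd81, a tetraspanin, stood at 66.3, 102 and 99 CPM against 112, 149 and 170 CPM (-0.68 ± 0.12; edgeR adjusted p = 0.00033). The libraries of the classes did not overlap in it, as held for 17.6% of all genes tested. Tmem119 (-0.64), Clec4b1 (-0.62), Arhgap24 (-0.59) and Susd3 (-0.59) were lower by similar amounts. All 10 had the same sign in the 3 libraries. Without the 20-month library Gnl3 alone of the 10 passed, and the other changes were then -0.41 to -0.70.

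**Figure D3:**
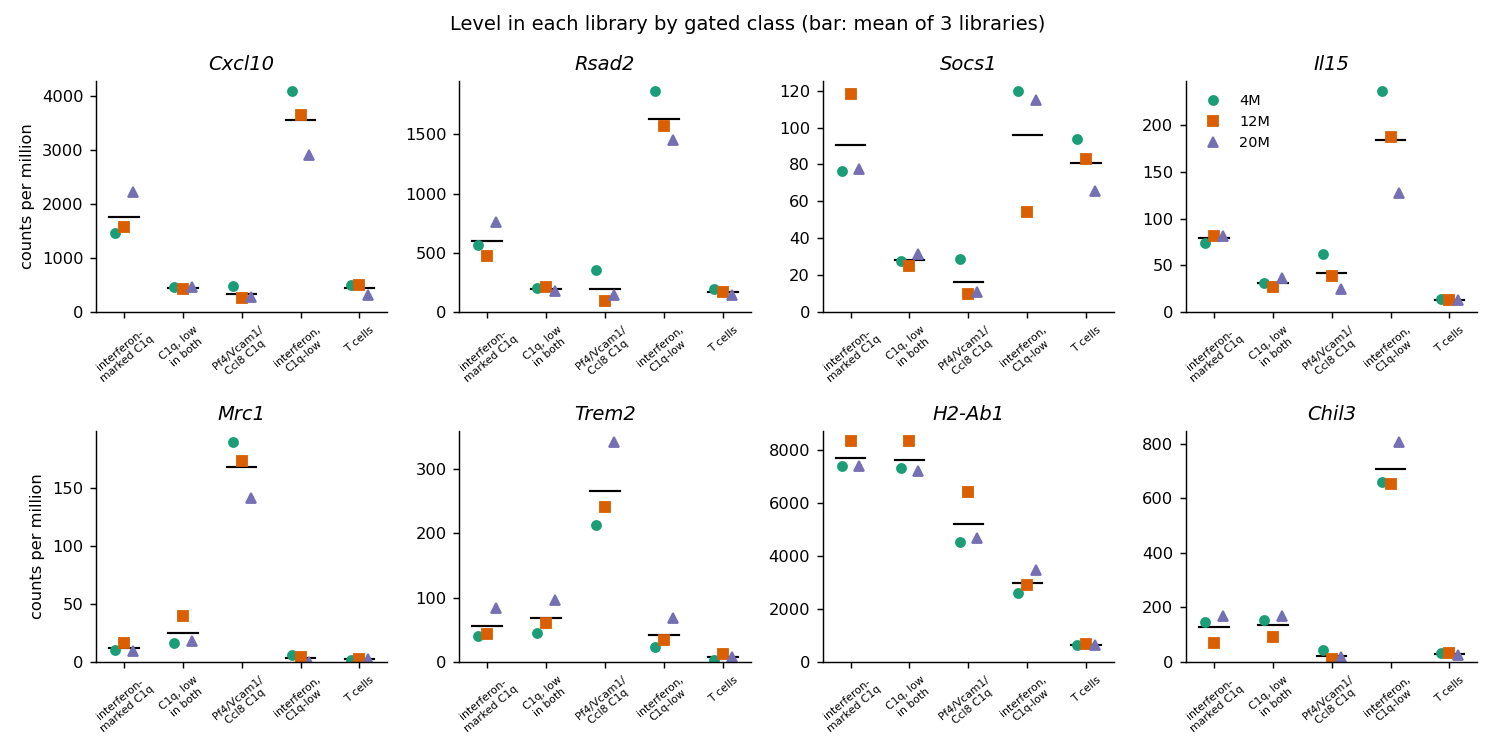
Level in CPM of 8 genes in each library (circle 4M, square 12M, triangle 20M) for the members, the 3 other myeloid classes and the T cells, with a bar at the mean of the 3 libraries. Cxcl10, Rsad2 and Il15 rank the members between the other C1q cells and the interferon-marked C1q-low cells, Mrc1 and Trem2 are highest in Pf4/Vcam1/Ccl8 C1q cells, and H2-Ab1 is as high in the members as in the C1q cells low in both sums.

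The promoters of the raised genes were searched for letters that interferon-activated factors are known to read. The first motif was the core of the interferon-stimulated response element, GAAA, any 2 bases, then GAAA, on either strand (TTTC, any 2 bases, then TTTC). The second was TTC, any 3 bases, then GAA, the core of the interferon gamma activated site, which reads the same on both strands. The 250 bases before the gene start in the RefSeq promoter table (GRCm38.p6) were used. The response element core occurred in 20.5% of the matched genes called higher against the C1q cells low in both sums (58 of 283) and in 6.06% of those called lower (2 of 33). It occurred in 4.28% of all matched genes tested and in 3.46% of the 27025 promoters in the table. Of the type I list 14 of 29 matched genes held it (48.3%), and of the interferon gamma list 11 of 22 (50%). The second motif occurred in 10.6% of the genes called higher, 7.21% of the genes tested and 8.13% of all promoters. It occurred in 13.8% of the type I list and 50% of the interferon gamma list. A match is only a description of the letters and says nothing of binding.

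Stretches of 120 bases upstream of 6 raised genes are shown because each holds at least 1 copy of the response element core, written in capitals on the strand of the gene. They are, in order, chr5:92348998-92349117 on the minus strand, chr12:26456468-26456587 on the minus strand, chr19:34640769-34640888 on the plus strand, chr4:156200819-156200938 on the minus strand, chr16:10785537-10785656 on the minus strand and chr3:142620543-142620662 on the plus strand, all upstream of the annotated start, in GRCm38.p6 from RefSeq. Capitals that run past 10 letters are overlapping copies, 3 in Isg15 and 2 in Socs1, and Ifit1 has 2 separate ones.
Cxcl10: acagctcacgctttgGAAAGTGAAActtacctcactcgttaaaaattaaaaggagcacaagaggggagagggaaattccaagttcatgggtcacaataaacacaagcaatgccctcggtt
Rsad2: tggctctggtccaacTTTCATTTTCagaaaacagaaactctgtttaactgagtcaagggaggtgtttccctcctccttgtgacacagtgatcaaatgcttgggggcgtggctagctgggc
Ifit1: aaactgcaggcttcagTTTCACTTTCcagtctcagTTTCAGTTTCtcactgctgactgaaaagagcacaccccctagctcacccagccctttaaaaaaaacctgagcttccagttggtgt
Isg15: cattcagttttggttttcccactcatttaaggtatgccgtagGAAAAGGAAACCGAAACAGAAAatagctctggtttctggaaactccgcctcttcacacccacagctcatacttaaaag
Socs1: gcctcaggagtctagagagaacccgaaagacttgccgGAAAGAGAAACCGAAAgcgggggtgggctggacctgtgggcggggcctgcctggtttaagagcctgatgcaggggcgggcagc
Gbp2: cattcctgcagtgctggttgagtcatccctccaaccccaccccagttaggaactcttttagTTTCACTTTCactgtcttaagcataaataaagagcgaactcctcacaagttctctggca
In Cxcl10 the core begins 213 bases before the gene start and in Rsad2 120, and in Ifit1 the copies begin 104 and 85 bases before it. Cmpk2 and Cxcl9, raised as well, held neither motif in their 250 bases.

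The second comparison set the members against the Pf4/Vcam1/Ccl8 C1q cells. Here 489 genes were higher (6.02%) and 354 lower (4.36%) of 8122. Without the 4-month library 309 and 199 were called, and without the 20-month library 225 and 162. The Pf4/Vcam1/Ccl8 class was small, with 16 cells at 12 months, so its levels are less exact than those of the members.

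Resident and scavenger genes were lower in the members. Of 22 listed genes 17 were tested, of which 14 were lower and none higher, with a median of -1.71 against 0.0021 over all genes tested. Mrc1, the mannose receptor, stood at 10.0, 16.3 and 9.7 CPM in the members and 190, 173 and 142 CPM in the Pf4/Vcam1/Ccl8 C1q cells, a log2 fold change of -3.87 ± 0.29 (edgeR adjusted p = 3.2e-11). Apoe, an apolipoprotein, stood at 1868, 2415 and 3319 CPM against 7829, 6951 and 10018 CPM (-1.71 ± 0.10). Trem2, a lipid receptor of macrophages, stood at 40, 42.9 and 83.8 CPM against 214, 241 and 343 CPM (-2.19 ± 0.17; edgeR adjusted p = 5.4e-11). In all 3 genes every library of the members lay below every library of the other class. The libraries of these classes did not overlap in 24.1% of all genes tested. The tetraspanin genes Cd81 and Cd63 had log2 fold changes of -2.93 ± 0.13 and -2.65 ± 0.12, and the factor gene Maf of -2.01 ± 0.15. Cadm1 (-2.92), Olfml3 (-2.80) and Cd93 (-2.66) were among the 10 largest falls.

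Interferon and monocyte genes went the other way. Of the 40 type I genes 32 were higher and none lower (median 1.02), and of the 29 tested interferon gamma genes 15 were higher and none lower (median 0.78). Of the 14 monocyte genes tested, 10 were higher and 1, F13a1, lower, with a median of 1.47. F13a1 (-1.73) lost its call under 8 of 12 alternatives, with values from -2.65 to 0.71, so its direction is not settled. Among these were the fits without the 4-month library (-1.29) and without the 12-month library (-0.89). Plac8 stood at 4559, 3582 and 4411 CPM against 855, 607 and 526 CPM (2.74 ± 0.10; edgeR adjusted p = 6.9e-18). Il1r2, the decoy receptor of interleukin 1, had the largest rise, at 154, 129 and 143 CPM against 9.5, 9.6 and 19.1 CPM (3.30 ± 0.38; edgeR adjusted p = 2.0e-07), and T cells held 25.2, 27.3 and 15.7 CPM. Ass1, an enzyme of arginine synthesis, was higher by 2.61 ± 0.23 and Chil3, a chitinase-like protein of monocytes, by 2.62 ± 0.33. Ly6c2 was higher by 2.37 ± 0.11, and here the level of the Pf4/Vcam1/Ccl8 class, 884 to 1184 CPM, lay below that of the T cells.

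Class II genes, level with the C1q cells low in both sums, stood above the Pf4/Vcam1/Ccl8 C1q cells. Of 8 tested, 6 were higher, with a median of 0.63. H2-Ab1 stood at 7388, 8324 and 7366 CPM against 4503, 6392 and 4654 CPM. The groups did not overlap, as held for 24.1% of all genes tested. Of the 19 class I genes 10 were higher, and 3 without the 20-month library. Il1b was higher by 1.21 ± 0.17 (1183, 827 and 1246 CPM against 451, 385 and 550 CPM), with 118, 119 and 83.4 CPM in the T cells.

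The third comparison asked how members differed from cells that passed the same interferon gate with little C1q. Here 579 genes were higher (7.13%) and 1011 lower (12.4%) of 8122. The 4-month library weighed heavily in it: without that library 84 genes were higher and 242 lower, and without the 20-month library 368 were higher. The C1q-low class had 303 cells at 4 months and 36 and 39 in the older libraries. The part of cell number in this was not tested.

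The interferon-marked C1q-low cells held more of most type I genes. Of the 40 genes, 27 were lower in the members and 1 higher, with a median of -0.52. Without the 4-month library 16 were lower and none higher. Cxcl10 stood at 1461, 1572 and 2223 CPM in the members and 4083, 3650 and 2903 CPM in the C1q-low cells. Rsad2 stood at 563, 472 and 757 CPM against 1863, 1570 and 1451 CPM. Neither gene overlapped between the classes, as held for 29.0% of all genes tested. Of the 29 interferon gamma genes 10 were lower and 4 higher, and without the 4-month library none was lower and 1 higher. The classes passed the same gate but did not hold its genes alike. Cxcl11 stood at 255, 176 and 231 CPM in the members and 259, 158 and 170 CPM in the C1q-low cells, Iigp1 at 328, 412 and 355 against 292, 224 and 260 CPM, and Ifit1bl1 at 565, 551 and 691 against 1030, 822 and 975 CPM. The part of this in the lower type I genes was not tested.

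Monocyte genes were lower in the members, 10 of 14 tested and none higher (median -1.11). Hp, haptoglobin, stood at 23.8, 28.6 and 49.9 CPM against 230, 299 and 289 CPM (-3.05 ± 0.17; edgeR adjusted p = 3.5e-13). F13a1, coagulation factor XIII, stood at 9.1, 16.3 and 10.4 CPM against 110, 125 and 63.8 CPM (-3.24 ± 0.33; edgeR adjusted p = 1.4e-08), and Vcan, the matrix proteoglycan versican, had a log2 fold change of -3.02 ± 0.24. None of these 3 genes overlapped between the classes, as held for 29.0% of all genes tested. Fn1 (-2.22), Thbs1 (-2.24) and Chil3 (-2.44) were among the 10 largest falls. The inflammatory Il1rn, which blocks interleukin 1, was lower as well (-1.49 ± 0.16).

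Class II genes were all higher in the members: 8 of 8 tested, with a median of 1.02, and 5 without the 4-month library. H2-Ab1 stood at 7388, 8324 and 7366 CPM against 2585, 2907 and 3469 CPM (1.33 ± 0.09; edgeR adjusted p = 3.1e-12), and H2-Eb1 was higher by 1.36 ± 0.08. Resident genes were higher in 7 of 17 tested, lower in 1. Ms4a7, a membrane protein of macrophages, stood at 691, 512 and 753 CPM against 202, 179 and 213 CPM (1.67 ± 0.10; edgeR adjusted p = 9.5e-13), and Cd81 was higher by 1.98 ± 0.22. Cd72, a C-type lectin receptor, stood at 1287, 1114 and 1035 CPM against 366, 374 and 413 CPM (1.57 ± 0.10). Gatm, an enzyme of creatine synthesis, was higher by 1.59 ± 0.15. Ch25h, which makes the antiviral lipid 25-hydroxycholesterol, was higher by 1.64 ± 0.29, but did not pass without the 4-month library (0.92).

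**Figure D4:**
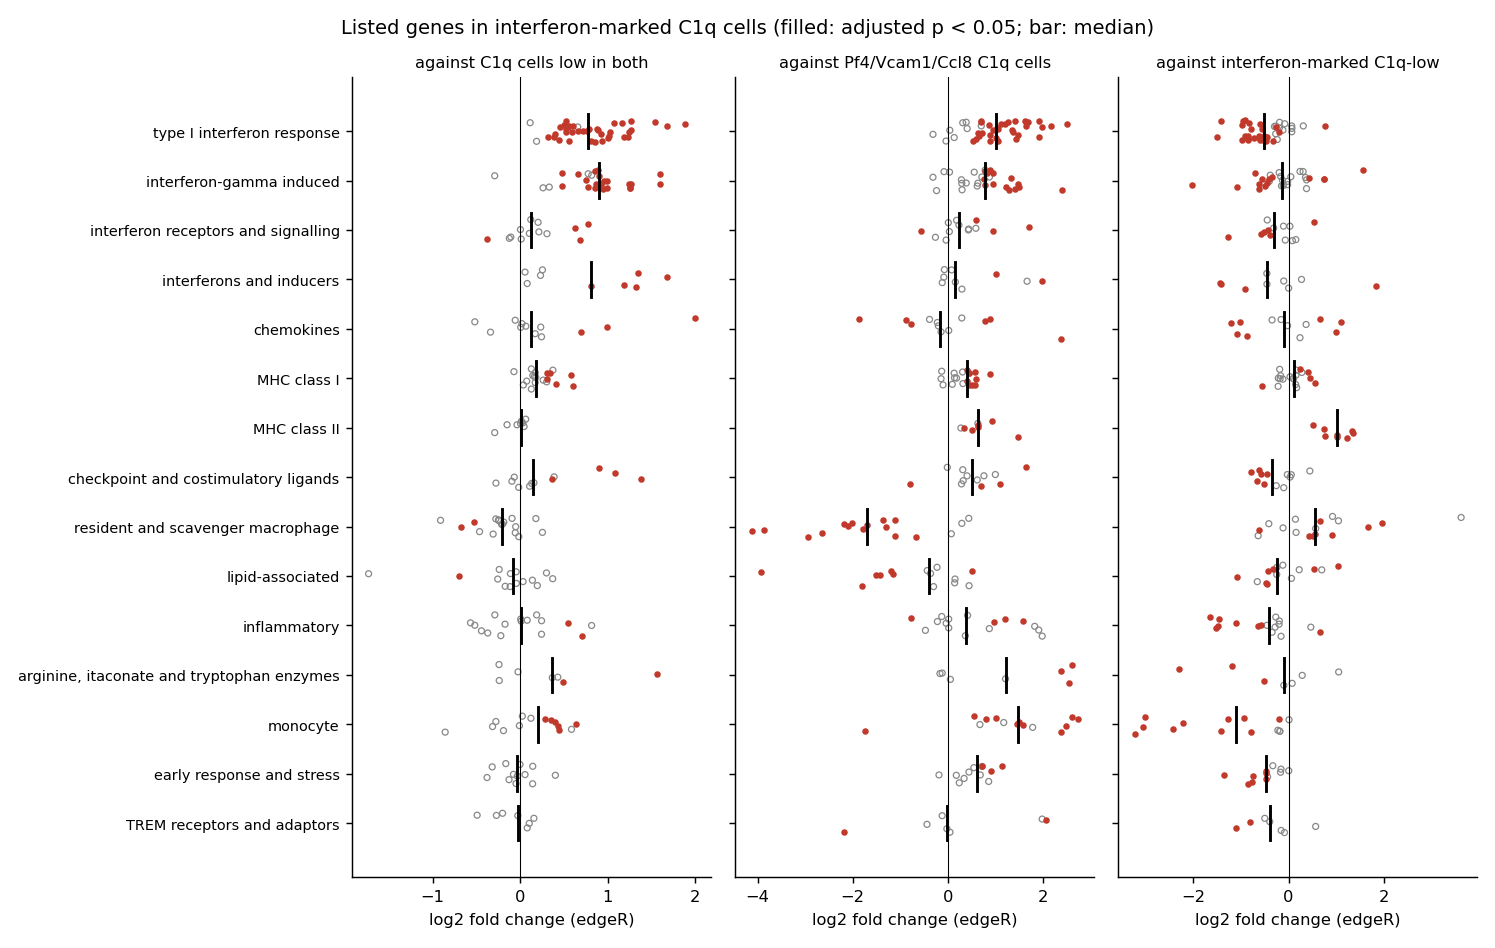
edgeR log2 fold change of each tested gene of 15 lists in the members against the C1q cells low in both sums, the Pf4/Vcam1/Ccl8 C1q cells and the interferon-marked C1q-low cells, with genes of adjusted p under 0.05 filled and a bar at each list's median. The type I list lies right of 0 in the first 2 panels (medians 0.78 and 1.02) and left of it in the third (-0.52); class II genes sit at 0.01, 0.63 and 1.02.

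The ages were compared within the members by the log2 ratio of CPM to the 4-month library, with exact intervals that cover counting error only. With 1 library for each age the mice, the library and the age cannot be told apart, and no test was made. A gene needed at least 20 CPM in either library and 20 counts in the 2 together. At 12 months 200 of 6620 genes were higher by 2-fold or more (3.02%) and 221 lower (3.34%). At 20 months 102 of 6459 were higher (1.58%) and 79 lower (1.22%). With the floor raised to 50 CPM these numbers became 35 and 34 at 12 months, and 17 and 18 at 20 months, so most 2-fold differences lay in genes of few counts. The larger number at 12 months goes with the smaller class there, 65 cells.

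The type I interferon genes of the members differed little between the ages. None of the 40 type I genes was 2-fold higher or lower at either age, and their median log2 ratio was -0.14 at 12 months and -0.04 at 20 months, beside 0.0012 and -0.02 for all genes. With the T cell level subtracted, the 20-month median was 0.31, over only those genes of the list above the T cell level at both ages. The same median in the C1q cells low in both sums was -0.15 and -0.16. At 12 months 15 of the 40 had an interval wholly below 0 and 2 wholly above, against 6.36% and 6.86% of all genes. At 20 months 10 lay below and 6 above, Cmpk2 (0.64) the highest, against 9.26% and 9.54% of all genes. Genes of more counts have narrower intervals, so these shares are not alike in precision. Of the 29 interferon gamma genes 4 were 2-fold lower at 12 months and none higher, namely Cxcl9, Gbp4 (-1.30, -2.34 to -0.41), Gbp2b and Upp1, the latter pair with intervals that include 0, and none passed 2-fold at 20 months. Cxcl10, a chemokine outside both lists, stood at 2223 CPM at 20 months against 1461, a log2 ratio of 0.61 (95% interval 0.53 to 0.68), while it stood at 470 against 458 CPM in the C1q cells low in both sums. Rsad2 had a ratio of 0.43 (0.31 to 0.55) at 20 months and -0.25 (-0.46 to -0.05) at 12 months. Cxcl9 had ratios of -1.08 (-1.38 to -0.79) at 12 months and -0.56 (-0.72 to -0.40) at 20 months. It was seen in 36.4%, 24.6% and 39.5% of members (24.2%, 21.5% and 30% after thinning), so fewer counts at 20 months did not go with fewer cells that held the transcript.

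Resident and scavenger genes were higher at 20 months in the members. Their median log2 ratio was 0.38 over the 15 genes tested, and 0.28 to 0.43 over the alternatives, with 10 of the 15 intervals above 0 and 1 below (9.54% and 9.26% of all genes). In the C1q cells low in both sums the same median was 0.28. Apoe stood at 1868, 2415 and 3319 CPM, with a ratio of 0.83 (0.77 to 0.89) at 20 months. The same order of ages was seen in the C1q cells low in both sums (2201, 2919 and 3759 CPM) and in the T cells (129, 246 and 294 CPM), at a far lower level. Maf stood at 103, 133 and 184 CPM, a ratio of 0.83 (0.56 to 1.09) at 20 months, while in the T cells it went from 191 to 102 CPM. Of the genes of the list, Trem2 and Mertk, a receptor for dying cells (1.33, 0.66 to 2.03), passed 2-fold at 20 months.

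The receptors in the series title were low in these cells. Trem2 stood at 40 CPM at 4 months (84 counts), 42.9 at 12 months (21 counts) and 83.8 at 20 months (121 counts), a log2 ratio of 1.07 (0.65 to 1.48) at 20 months and 0.10 (-0.67 to 0.80) at 12 months. Over all alternatives the 20-month ratio was 0.97 to 1.15, and in the C1q cells low in both sums it was 1.09. With each cell thinned to 3500 counts, Trem2 was seen in 11.4%, 15.4% and 19.5% of members (21.6%, 18.5% and 30.5% before thinning) and in 1.15%, 5.15% and 3.54% of the T cells. Trem1, which amplifies inflammatory signals in neutrophils and monocytes, stood at 24.3 CPM (51 counts), 8.2 CPM (4 counts) and 16.6 CPM (24 counts), with a 20-month ratio of -0.55 (-1.31 to 0.18). Its adaptor gene Tyrobp stood at 2122, 1917 and 1981 CPM. Against the C1q cells low in both sums none of the 7 genes of the TREM list passed edgeR's test. Against the Pf4/Vcam1/Ccl8 C1q cells, Trem2 was lower and Trem3 higher (2.07 ± 0.52), the latter not without the 4-month (1.73) or the 20-month library (1.79).

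By the naming rule, 10 genes with the largest rise and 10 with the largest fall at 20 months were taken, and 8 of these 20 owed over 30% of their counts in the higher library to 1 cell. Vwf, at 52.0 CPM at 4 months and 2.1 at 20 months, had 108 of its 109 counts in 1 cell. Eya2 had 93 of its 96 counts at 20 months in 1 cell, Fubp3 90 of 106 at 4 months and Efcab5 49 of 81 at 20 months. Kcnip4, Slc5a6, Luzp2 and Pmpcb were the other 4. Without the counts of its highest cell in each library, Vwf stood at 0.48 CPM at 4 months and 1.4 at 20 months, and Eya2 at 3.8 and 2.1 CPM, so their differences were those of 1 cell. Pmpcb then still stood at 60.5 against 24.9 CPM, and Slc5a6 at 14.3 against 105 CPM, but few cells held these counts too. The 3 highest cells held 76.5% of the Pmpcb counts at 4 months and 84.3% of the Slc5a6 counts at 20 months.

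The remaining genes were spread over many cells. C3, the central complement protein, stood at 44.8, 73.5 and 84.5 CPM, with a ratio of 0.91 (0.51 to 1.32) at 20 months, and was counted in 71 of the 200 cells there. Apoc2, an apolipoprotein, stood at 40.5, 42.9 and 79.6 CPM (0.97, 0.56 to 1.40), and Cited2, a transcriptional co-regulator, at 52.9, 67.4 and 94.2 CPM (0.83, 0.46 to 1.21). In the C1q cells low in both sums these 3 ratios were 0.49, 0.07 and 0.38. Pla2g4a, the phospholipase that releases arachidonic acid, stood at 97.3, 85.7 and 50.6 CPM (-0.94, -1.35 to -0.55), and Ccng1, a p53 target, stood at 61.5, 30.6 and 26.3 CPM (-1.22, -1.79 to -0.69). Klre1 and Klra7, receptors of NK and T cells, were lower at 20 months (-1.35 and -1.17), as was Denr (-0.91). Cxcr3, a T cell receptor for chemokines, was higher (0.84). The T cells held more of Klre1, Klra7, Denr and Cxcr3 than the members at both ages. No ratio is therefore left for them when the T cell level is subtracted. Klra7 stood at 51.5 and 22.9 CPM in the members at 4 and 20 months, and at 67.2 and 57.9 CPM in the T cells.

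**Figure D5:**
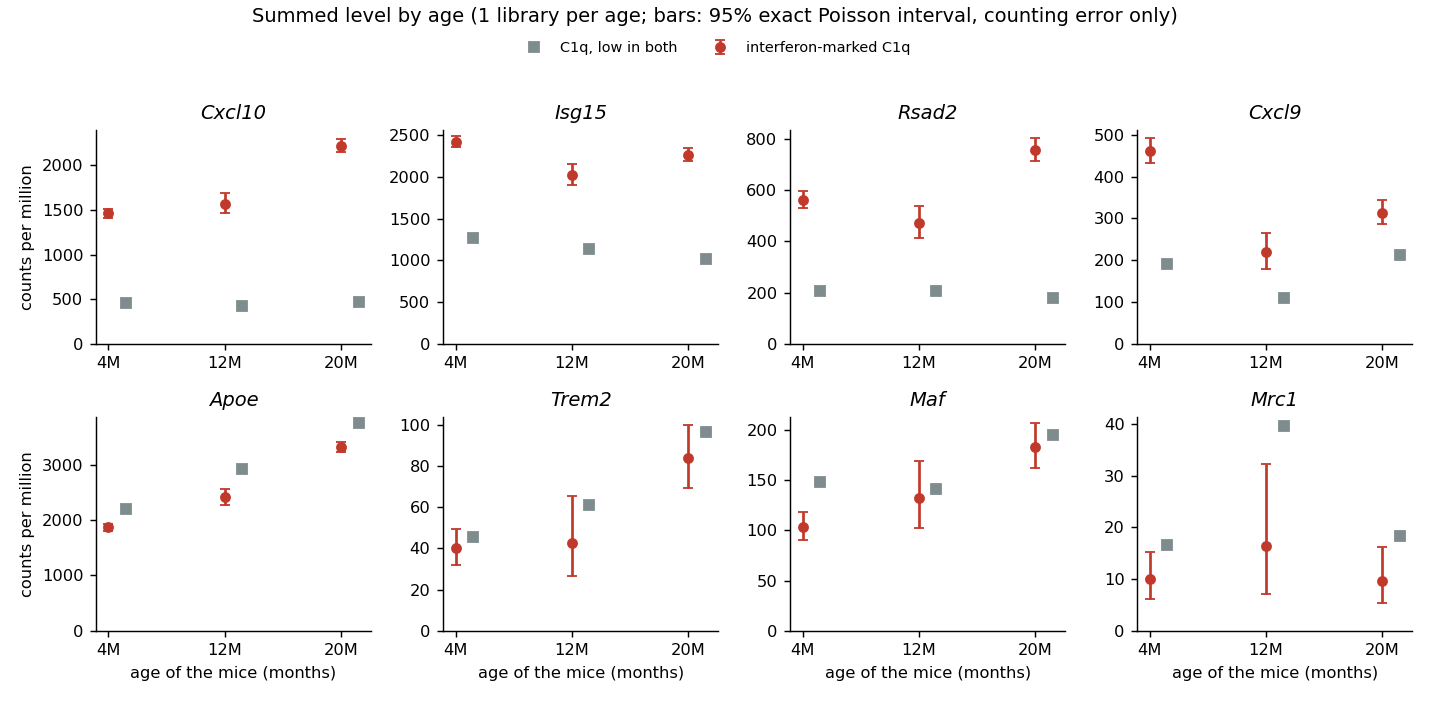
Summed level in CPM of 8 genes at 4, 12 and 20 months in the members (red, with 95% exact Poisson intervals, counting error only) and in the C1q cells low in both sums (grey squares). Cxcl10 is higher at 20 months in the members (2223 against 1461 CPM) and level in the other class, whereas Apoe and Trem2 are higher at 20 months in both.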

How the data were processed

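Live CD45+ cells of YUMM1.7 tumours were profiled by PIP-seq, 1 library for each age. The deposited matrices hold whole-number counts per gene and cell, and whether these are molecules or reads is not given in the sources used here. The authors' reads were aligned with STAR 2.7.10a to GRCm38, per the submitters' processing notes. Cells were gated on raw counts, and the counts of each class were summed per library, which was the unit of replication. The gates, members and gene lists were chosen with earlier results of these data known. In R 4.3.3, edgeR 4.0.16 fitted 4 classes in 3 libraries (12 columns) with filterByExpr, TMM factors, a library block and the quasi-likelihood test, and p-values were adjusted by Benjamini-Hochberg over all 8122 genes. The 21 gate genes were not tested. The procedure was tested on simulated data. Levels are CPM of the summed counts, and the 95% intervals of levels and ratios are exact (scipy 1.17.1).

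Besides listed genes, the text names the 10 highest and 10 lowest log2 fold changes among called genes with at least 50 CPM in every library of the higher class and 1 sign in all 3 libraries. By age, these are the 10 largest rises and falls at 20 months with at least 50 CPM in either library, the 12-month value between, an interval that excludes 0, and a T cell ratio that is opposite or much smaller. Alternatives were other C1q, interferon and Pf4/Vcam1/Ccl8 gates, cells thinned to 3500 counts, removal of the 6% of cells with the highest Scrublet scores (scanpy 1.11.5), at most 15% mitochondrial counts, DESeq2 1.42.0, its size factors in edgeR, no filter, no block, only the classes compared, and each library left out. Ages were also compared with other floors and scalings and with the T cell level subtracted. A Cd3 gate of 5 and the subtraction of T cells with at least 12 Cd3 counts were chosen after seeing the data.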

Additional observations from a re-analysis of the deposited data

How the results depend on the processing

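The gate set the size of the class. With at least 6 interferon counts, members made up 27.9%, 18.3% and 24.2% of C1q cells at 4, 12 and 20 months (37 cells at 12 months), with at least 3 52.3%, 40.1% and 43.3%, and in cells thinned to 3500 counts 20.0%, 17.0% and 18.8% (177 cells at 12 months and 323 at 20). With up to 5 Cd3 counts there were 760, 443 and 820 members, 45.9% of C1q cells at 4 months. More cells enter a class by construction when a gate is relaxed or set on thinned counts. For other changes the cause was not tested.

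Against the C1q cells low in both sums, genes called higher and lower numbered 229 and 12 with DESeq2, 212 and 5 with no library block, 591 and 122 in thinned cells and 820 and 100 at the Cd3 gate of 5. With no filter on low counts 110 were lower. Leaving out 1 library gave 184 to 355 higher and 14 to 45 lower. Against the Pf4/Vcam1/Ccl8 C1q cells, 221 and 118 were called where that class had no interferon counts, 1294 and 817 at the Cd3 gate of 5, and 225 to 485 and 162 to 256 without 1 library. Against the interferon-marked C1q-low cells, DESeq2 called 222 and 667, the Cd3 gate of 5 gave 1380 and 2040, and leaving out 1 library 84 to 429 and 242 to 911. There, 333 were higher with no block and 368 with the other classes at 0 interferon counts. Of the values of the named genes under these alternatives, 222 of 260, 259 of 259 and 259 of 260 kept their direction and call in the 3 comparisons, and none reversed. The classes were paired within libraries by the library block.

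Genes 2-fold higher and lower at 12 months numbered 35 and 34 at a floor of 50 CPM, 41 and 32 at the Cd3 gate of 5, 573 and 383 with the T cell level subtracted and 567 and 365 with that of T cells high in Cd3. At 20 months the numbers were 17 and 18, 28 and 36, 597 and 344, and 487 and 300. Subtraction kept only genes above the T cell level in both libraries compared, so those numbers are not out of all the genes. With at least 6 interferon counts 411 were lower at 12 months and 120 at 20, and in thinned cells 142 at 20. Ratios that changed sign in thinned cells were C3 (-0.25), Vwf (0.24) and Pmpcb (0.54) at 12 months, and Eya2 (-0.70) and Pmpcb (0.26) at 20 months. At 20 months Slc5a6 became -0.10 at the Cd3 gate of 5. With the T cell level subtracted, the calculation gave -0.30 for Cxcr3, 0.094 for Klre1, 1.15 for Klra7 and 1.19 for Denr. The T cells held more of these genes than the members at both ages. The values therefore come from negative differences, no ratio is defined, and they are not reversals. With T cells high in Cd3 subtracted, Cxcr3 became -0.014 and Denr 0.60, which are not read as reversals either. Trem2 kept a 20-month ratio of 0.97 to 1.15 under all the alternatives.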
